A study of Mus musculus with 8 samples.

Results

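The genes described here encode the negative feedback arm of cytokine signaling in mouse lung. They are 4 members of the suppressor of cytokine signaling (SOCS) family, Socs1, Socs2, Socs3 and Cish, with the anti-inflammatory cytokine Il10 and the 2 chains of its receptor, Il10ra and Il10rb. They were chosen by symbol and matched to Ensembl mouse gene IDs, and all 7 were found among the 55416 gene IDs of the count files. Lungs came from 8 female C57BL/6J mice aged 6 to 8 weeks, with 1 library per mouse. Control mice 1, 2 and 4 received DMSO intravenously and then saline. LPS mice 1, 6 and 7 received LPS at 35 mg/kg into the peritoneum. Dual-treatment mice 2 and 5 were injected with YW3-56, an inhibitor of the PAD enzymes including PAD4, at 10 mg/kg in DMSO. The same dose of LPS followed shortly after. A side of the lung was taken 24 h later. The methods name DMSO for the control and dual-treatment groups but not for the LPS group, so a part played by the solvent cannot be told apart from that of YW3-56. The methods give 3 sequenced mice per group, whereas the labels and the figure caption of the paper give 2 for the dual treatment.

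SOCS proteins are made when cytokine receptors activate Janus kinases (JAKs) and STAT transcription factors, and they then shut the same receptors down. SOCS1 and SOCS3 block JAK activity directly, SOCS1 mainly at interferon receptors and SOCS3 at receptors that signal through gp130 and at the G-CSF receptor, whereas CIS (the product of Cish) and SOCS2 act mainly on receptors that use STAT5. IL-10 restrains macrophages through STAT3 by way of IL-10RA, the ligand-binding chain, and IL-10RB, a chain shared with receptors for IL-22 and type III interferons.

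Before the results, 2 libraries have to be set apart. The 7 squamous epithelium markers summed to 5.58, 10.8 and 11.2 CPM (counts scaled to library size with TMM factors, here and throughout) in control mice 1, 2 and 4, to 0.653, 750.2 and 2016 in LPS mice 1, 6 and 7, and to 9.71 and 23.6 in dual-treatment mice 2 and 5. The 6 skeletal muscle markers summed to 10.5, 19.3 and 13.9 CPM in control, 17.0, 217 and 519.8 in LPS, and 5.22 and 7.73 in dual-treatment mice in the same order. LPS mice 6 and 7 therefore carried RNA of squamous epithelium, with Krt13 the most abundant marker, and of skeletal muscle, with Ckm the most abundant, that LPS mouse 1 and the other groups lacked or held at far lower levels. Of these markers, 6 of 7 and 6 of 6 passed the test as higher in LPS than in control. Every LPS lung lay above every control lung for 1 of 7 and 1 of 6. Krt4, Sprr3, Krtdap and Myh4 passed the filter on low counts only through LPS mice 6 and 7. They were high there, so their direction was set by the filter. The share of this RNA in the results below was not tested. The fold changes, calls and ratios were repeated without both mice, while the shares of the LPS change, the orders per kb and the correlations were not. Fits without both mice hold 1 LPS lung, and fits without a dual-treatment mouse hold 1 dual-treatment lung. The spread in such fits comes from the groups with more than 1 lung. Their calls, here and below, therefore describe how a result moved and decide nothing about the group with 1 lung. The lung label held in all 8 libraries. The 6 lung epithelium markers had Scgb1a1 as the most abundant and none at 0 in all libraries. They summed to between 66650 and 73040 CPM in control, 69080 and 93110 in LPS, and 40560 and 54370 in dual-treatment mice. That sum followed Scgb1a1, from 33560 mean CPM in control to 58140 in LPS. The mean of Sftpc went from 22770 to 11980 CPM and that of Sftpb from 5592 to 2981 CPM. Sftpa1, Ager and Hopx also had lower means in LPS than in control. In LPS against control 1 marker was called higher and 2 lower. The number lower was 5 with library size alone as the scale and 0 by edgeR without LPS mice 6 and 7.

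All 7 genes passed the filter on low counts and were tested among 18560 genes with edgeR's quasi-likelihood test, two-sided, with Benjamini-Hochberg adjustment over all of them; a gene was called at adjusted p under 0.05. LPS moved much of the transcriptome, so a call is common in these data. Of all tested genes, 66.5% were called in LPS against control (32.6% higher and 33.9% lower), and 6 of the 7 genes were called, all 6 higher. In the dual treatment against LPS 59.1% of genes were called (31.7% higher and 27.4% lower), and 5 of the 7 were called, all 5 lower. In the dual treatment against control 16.1% were called (9.13% higher and 7.02% lower), and 3 of the 7 were called, all 3 higher. The median log2 fold change (log2FC) of the 7 genes was 2.33, -0.93 and 0.37 in these comparisons, beside -0.01, 0.06 and 0.0042 for all tested genes. These comparisons share the LPS or the control libraries, so their values are not independent of each other. Without LPS mice 6 and 7 the counts called were 6, 5 and 3. The calls against control depend most on single libraries: leaving out 1 gave 1220 to 3601 genes, beside 2997 with all, and 2 to 4 of the 7.

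**Figure D1:**
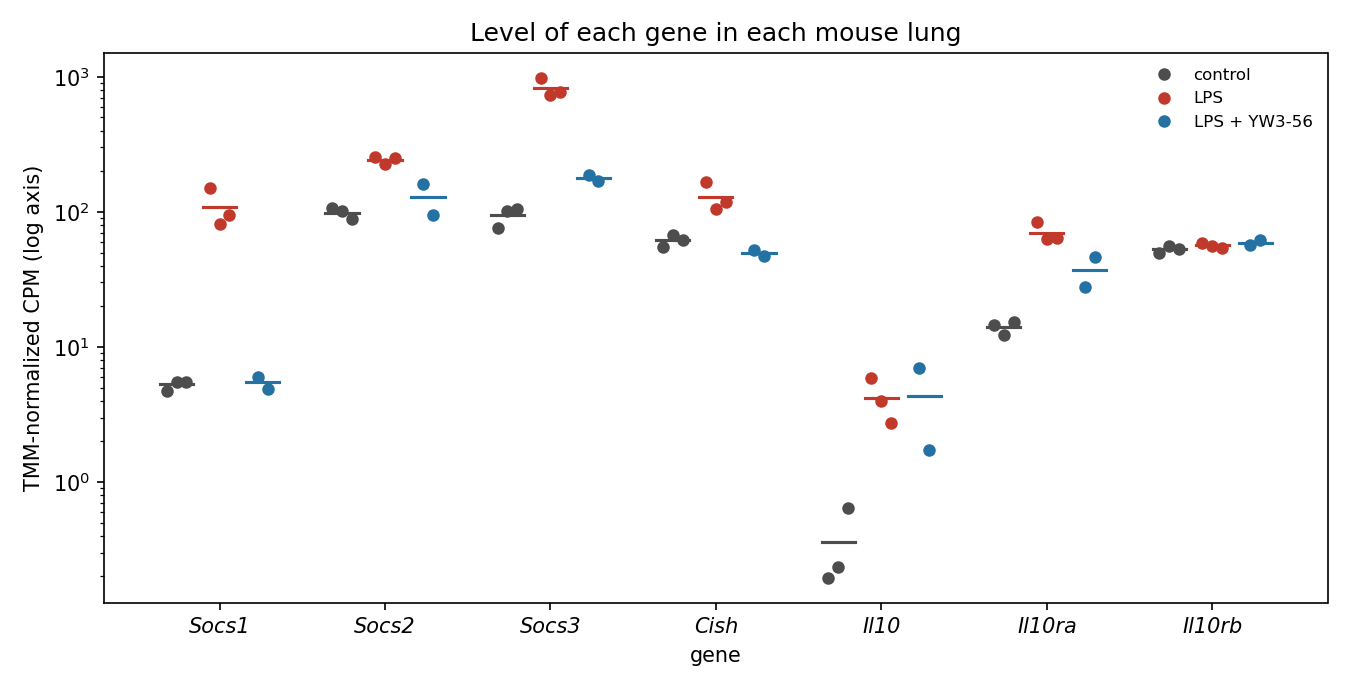
Level of each of the 7 genes in each lung, in TMM-normalized CPM on a log axis; each point is 1 mouse and each line the mean of a group (control 3, LPS 3, LPS plus YW3-56 2 mice). Socs1 lies between 4.75 and 5.99 CPM in control and dual-treatment lungs and between 81.5 and 150.2 CPM in LPS lungs.

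Socs1, whose protein blocks JAKs below interferon receptors, had the largest fold change of the 7 genes in response to LPS and had a dual-treatment mean close to that of control. Its level was 4.75, 5.54 and 5.52 CPM in control mice 1, 2 and 4, 150.2, 81.5 and 94.6 CPM in LPS mice 1, 6 and 7, and 5.99 and 4.92 CPM in dual-treatment mice 2 and 5. Every LPS lung lay above every other lung, and the dual-treatment lungs overlapped with the controls. The group means were 5.27 ± 0.45 (SD, n = 3), 109 ± 36.5 (n = 3) and 5.45 ± 0.76 (n = 2) CPM. Socs1 rose with LPS by a log2FC of 4.37 (95% interval 3.83 to 4.90, adjusted p = 9.57e-07, edgeR quasi-likelihood test). It was lower in the dual treatment than in LPS, with a log2FC of -4.32 (-4.95 to -3.68, adjusted p = 6.13e-06, the same edgeR test). Against control the dual-treatment log2FC was 0.05 (-0.55 to 0.65, adjusted p = 0.928, edgeR), an interval that allows a change of either sign. The last value was -0.02 without control mouse 1 and -0.13 without dual-treatment mouse 2. In bulk lung, a change in the number of cells that make a transcript and a change in its amount per cell cannot be told apart, here or in any result below. The LPS log2FC of Socs1 was 4.84 without LPS mice 6 and 7, and that of the dual treatment against LPS -4.79.

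Socs3, the brake on gp130 and G-CSF receptors, had a higher control level than Socs1 and dual-treatment levels between those of control and LPS. Its level was 76.3, 101 and 105 CPM in control mice 1, 2 and 4, 980.4, 729 and 767 CPM in LPS mice 1, 6 and 7, and 187 and 170.3 CPM in dual-treatment mice 2 and 5. The 3 groups did not overlap, with the dual-treatment lungs between the others and close to each other. The means were 94.2 ± 15.6 (n = 3), 825 ± 136 (n = 3) and 178 ± 11.5 CPM (n = 2). Socs3 rose with LPS by a log2FC of 3.13 (2.75 to 3.51, adjusted p = 8.97e-07, edgeR). The dual-treatment level was lower than that in LPS, with a log2FC of -2.21 (-2.64 to -1.78, adjusted p = 1.82e-05, edgeR). It was still higher than in control, with a log2FC of 0.92 (0.53 to 1.31, adjusted p = 0.00745, edgeR). Leaving out LPS mice 6 and 7 gave 3.38 for LPS against control and -2.46 for the dual treatment against LPS.

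Cish, a STAT5 target whose product CIS docks on STAT5-using receptors, had smaller fold changes. Its level was 55.2, 67.9 and 62.0 CPM in control mice 1, 2 and 4, 165, 105 and 118 CPM in LPS mice 1, 6 and 7, and 52.2 and 47.2 CPM in dual-treatment mice 2 and 5. All 3 LPS lungs lay above the others, LPS mouse 1 furthest, and both dual-treatment lungs lay below all 3 controls. The means were 61.7 ± 6.36 (n = 3), 129 ± 31.8 (n = 3) and 49.7 ± 3.56 CPM (n = 2). Cish rose with LPS by a log2FC of 1.07 (0.70 to 1.43, adjusted p = 0.000319, edgeR). It was lower in the dual treatment than in LPS, with a log2FC of -1.38 (-1.81 to -0.95, adjusted p = 0.000242, edgeR). Against control the dual-treatment log2FC was -0.31 (-0.72 to 0.10, adjusted p = 0.292, edgeR) and did not pass the test. The first 2 values were 1.43 and -1.74 without LPS mice 6 and 7.

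Socs2, best known as the brake on growth hormone signaling, varied little within control and LPS but differed between the 2 dual-treatment mice. Its level was 107, 102 and 88.1 CPM in control mice 1, 2 and 4, 253, 227 and 249.9 CPM in LPS mice 1, 6 and 7, and 160.2 and 95.5 CPM in dual-treatment mice 2 and 5. Dual-treatment mouse 5 lay among the controls and mouse 2 between the controls and the LPS lungs. The means were 98.8 ± 9.63 (n = 3), 243 ± 14.0 (n = 3) and 128 ± 45.8 CPM (n = 2). Socs2 rose with LPS by a log2FC of 1.30 (0.91 to 1.69, adjusted p = 0.000135, edgeR). In the dual treatment it was lower than in LPS, with a log2FC of -0.93 (-1.37 to -0.48, adjusted p = 0.00299, edgeR). Against control its log2FC was 0.37 (-0.06 to 0.80, adjusted p = 0.226, edgeR). That value was -0.08 without dual-treatment mouse 2 and 0.67 without dual-treatment mouse 5, where it passed the threshold. Each of these fits holds 1 dual-treatment lung, so the spread comes from the other groups. The LPS log2FC of Socs2 was 1.36 without LPS mice 6 and 7.

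**Figure D2:**
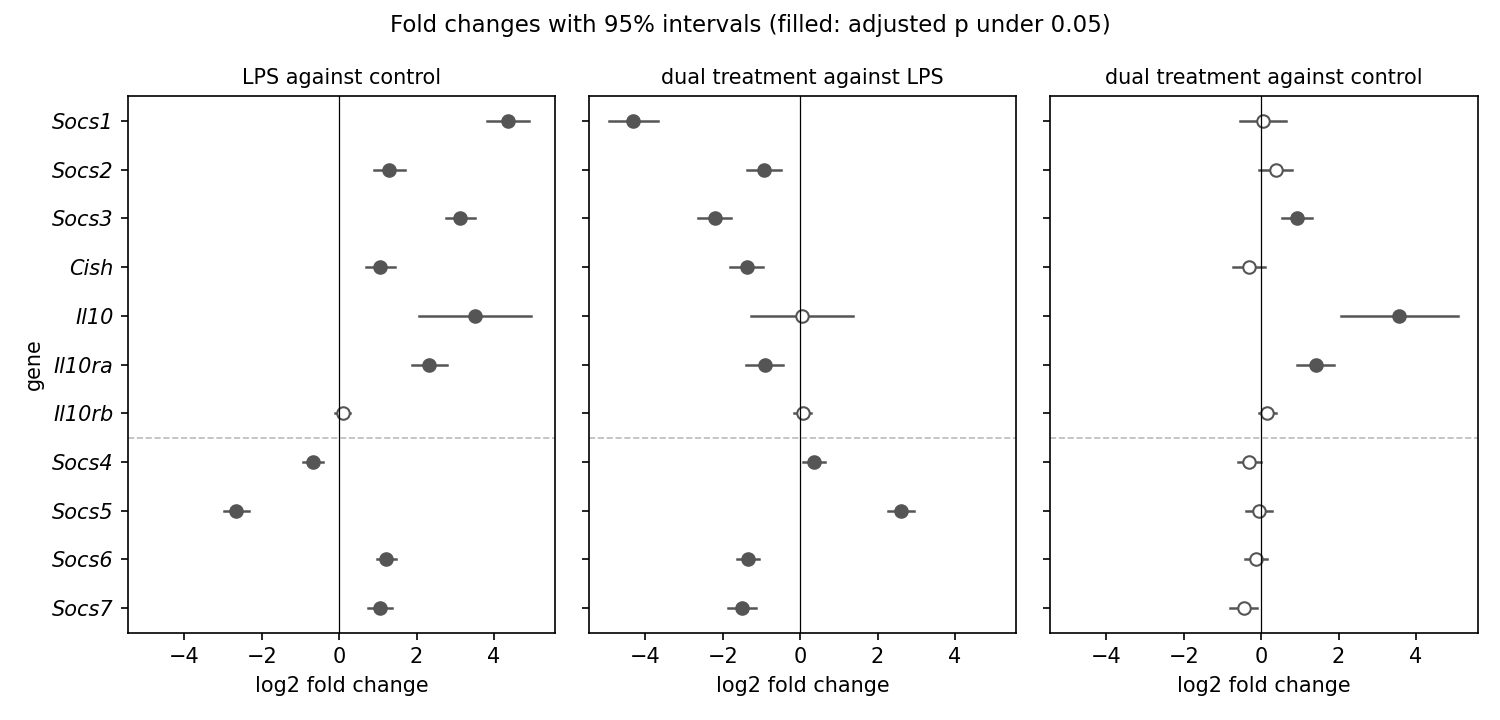
Log2 fold change (horizontal axis) of the 7 genes and, under the dashed line, the 4 other SOCS genes in the 3 comparisons; points are edgeR estimates, lines 95% intervals, and filled points have an adjusted p under 0.05. Socs5 is the gene with the lowest LPS value, -2.66, and Socs1 the one with the highest, 4.37.

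The balance between Socs3 and Cish was also taken within each library, as the log2 ratio of their raw counts, which does not depend on how libraries are scaled. This log2 ratio was 0.47, 0.58 and 0.76 in control mice 1, 2 and 4, 2.57, 2.80 and 2.70 in LPS mice 1, 6 and 7, and 1.84 and 1.85 in dual-treatment mice 2 and 5. The 3 groups did not overlap, and the dual-treatment lungs had a ratio between the other groups. The means were 0.60 ± 0.15, 2.69 ± 0.12 and 1.84 ± 0.01. LPS differed from control by 2.09 (exact two-sided permutation p = 0.1). The dual treatment differed from LPS by -0.85 and from control by 1.24 (exact permutation p = 0.1 for each). With 3 against 3 or 3 against 2 lungs 0.1 is the smallest p this test can give. With LPS mouse 1 as the only LPS lung the first 2 differences were 1.97 and -0.73.

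Il10, the ligand, had levels in the dual-treatment lungs that spanned those in LPS lungs. It was scarce, with 4, 5 and 14 reads in control mice 1, 2 and 4, 99, 69 and 49 in LPS mice 1, 6 and 7, and 154 and 39 in dual-treatment mice 2 and 5. As a level this was 0.196, 0.235 and 0.644 CPM in control, 5.87, 3.99 and 2.74 CPM in LPS, and 6.99 and 1.71 CPM in dual-treatment lungs. Dual-treatment mouse 2 had the highest value of all 8 lungs and mouse 5 lay below the 3 LPS lungs, and both lay above the controls. The means were 0.358 ± 0.248 (n = 3), 4.20 ± 1.58 (n = 3) and 4.35 ± 3.73 CPM (n = 2). Il10 rose with LPS by a log2FC of 3.52 (2.07 to 4.97, adjusted p = 0.000984, edgeR). That log2FC was 4.24 without control mouse 4, the control lung with 14 reads, and 4.01 without LPS mice 6 and 7. The dual treatment differed from LPS by a log2FC of 0.05 with a wide interval (-1.27 to 1.37, adjusted p = 0.945, edgeR), so a fall or a rise of over 2-fold was not resolved. That value was -1.31 without dual-treatment mouse 2, 0.72 without mouse 5, -0.19 without LPS mouse 7 and -0.44 without LPS mice 6 and 7. Against control Il10 was higher in the dual treatment, with a log2FC of 3.57 (2.05 to 5.09, adjusted p = 0.00772, edgeR). This call was lost without dual-treatment mouse 2, at a log2FC of 2.197. That fit holds 1 dual-treatment lung, so its spread comes from the other groups. Without control mouse 4 the log2FC was 4.27.

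Il10ra, the ligand-binding receptor chain found mainly on leukocytes, rose with LPS and had dual-treatment levels between those of control and LPS. Its level was 14.5, 12.2 and 15.2 CPM in control mice 1, 2 and 4, 83.6, 62.5 and 63.9 CPM in LPS mice 1, 6 and 7, and 27.9 and 46.0 CPM in dual-treatment mice 2 and 5. The groups did not overlap, and the 2 dual-treatment lungs differed from each other. The means were 13.9 ± 1.58 (n = 3), 70.0 ± 11.8 (n = 3) and 36.9 ± 12.8 CPM (n = 2). Il10ra rose with LPS by a log2FC of 2.33 (1.88 to 2.78, adjusted p = 8.41e-06, edgeR). It was lower in the dual treatment than in LPS, with a log2FC of -0.92 (-1.41 to -0.44, adjusted p = 0.00506, edgeR). It was higher than in control, with a log2FC of 1.41 (0.93 to 1.88, adjusted p = 0.00257, edgeR). The LPS log2FC of Il10ra was 2.59 without LPS mice 6 and 7.

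Il10rb, the shared receptor chain, is expressed by many cell types. Its level was 49.8, 55.5 and 53.3 CPM in control mice 1, 2 and 4, 59.0, 56.0 and 54.4 CPM in LPS mice 1, 6 and 7, and 56.5 and 61.4 CPM in dual-treatment mice 2 and 5. LPS and control lungs overlapped, as did LPS and dual-treatment lungs, whereas both dual-treatment lungs lay above all 3 controls. The means were 52.8 ± 2.85 (n = 3), 56.4 ± 2.34 (n = 3) and 59.0 ± 3.48 CPM (n = 2). The LPS log2FC was 0.09 (-0.10 to 0.29, adjusted p = 0.352, edgeR). That of the dual treatment against LPS was 0.06 (-0.15 to 0.28, adjusted p = 0.591, edgeR). Against control the dual-treatment log2FC was 0.16 (-0.06 to 0.37, adjusted p = 0.305, edgeR). Scaling by library size alone turned the LPS value to -0.19 and made the dual-treatment value against LPS 0.39 (adjusted p = 0.00644, edgeR; range over all alternatives 0.00644 to 0.967). The same scaling moved the median of all tested genes to -0.29 and 0.38, so in both comparisons Il10rb lay near the median gene.

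The log2 ratio of Il10ra to Il10rb counts within a library was -1.78, -2.19 and -1.81 in control mice 1, 2 and 4, 0.50, 0.16 and 0.23 in LPS mice 1, 6 and 7, and -1.02 and -0.42 in dual-treatment mice 2 and 5. The groups did not overlap. The sign of this ratio depends on transcript length, so differences between groups are read here and not the side of 0. The means were -1.93 ± 0.23, 0.30 ± 0.18 and -0.72 ± 0.42. LPS differed from control by 2.22, the dual treatment from LPS by -1.02 and the dual treatment from control by 1.21 (exact two-sided permutation p = 0.1 for each, again the smallest possible). With LPS mouse 1 as the only LPS lung the first 2 differences were 2.43 and -1.22.

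**Figure D3:**
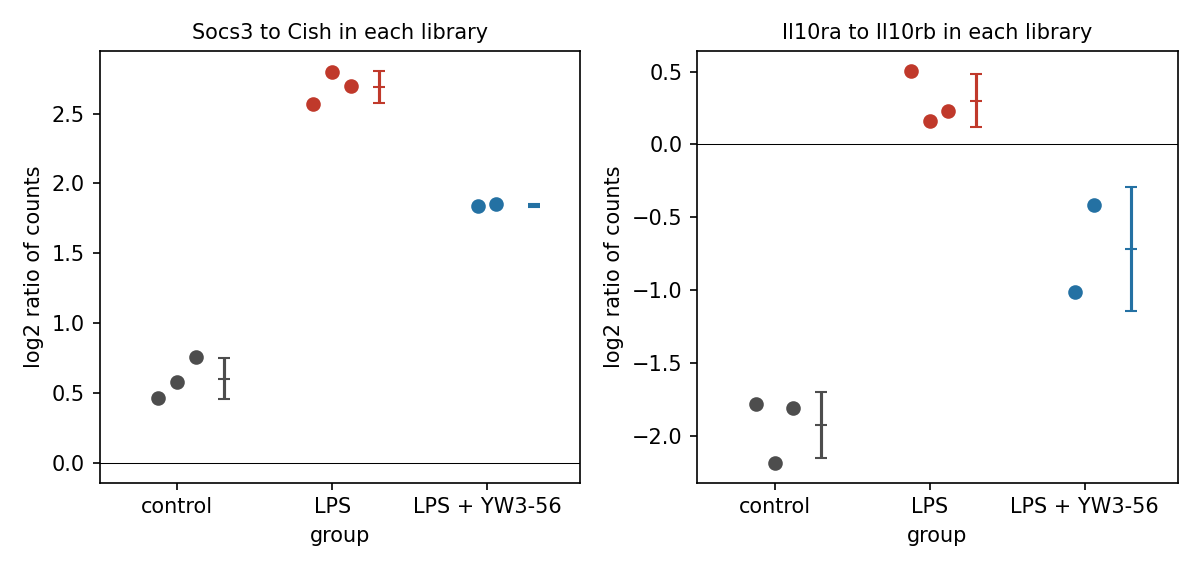
Log2 ratio of raw counts within each library, Socs3 to Cish and Il10ra to Il10rb, by group; points are mice, and the marks beside them the mean with 1 SD. The Il10ra to Il10rb ratio is highest in LPS lungs and lowest in control lungs.

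Leukocyte marker sums are given beside Il10 and Il10ra, and their part in these results was not tested. The 4 pan-leukocyte markers, Coro1a the most abundant, summed to 301, 239 and 271 CPM in control mice 1, 2 and 4, 542, 594 and 419 in LPS mice 1, 6 and 7, and 669.9 and 912 in dual-treatment mice 2 and 5. All 4 were higher in LPS than in control, 3 of 4 were higher in the dual treatment than in LPS, and all 4 were higher in the dual treatment than in control. The middle count was 2 without LPS mice 6 and 7 or without dual-treatment mouse 5, and the last was 3 without any 1 of control mice 2 or 4 or either dual-treatment mouse. The 7 neutrophil markers, S100a9 the most abundant, summed to 215, 118 and 125 CPM in control, 2125, 2948 and 1843 in LPS, and 1715 and 2387 in dual-treatment lungs. All 7 rose with LPS, 6 of them without LPS mice 6 and 7. Between the dual treatment and LPS 4 were called higher and 1, Ly6g, lower (16.1 mean CPM in LPS and 2.39 in the dual treatment), which the sum, made mostly of S100a9 and S100a8, does not show. That split depends on the libraries, with 1 higher and 0 lower by edgeR without LPS mice 6 and 7, and 1 and 1 without dual-treatment mouse 5. Against control 6 of 7 were higher in the dual treatment, and 6 or 7 in every alternative. The 7 macrophage and monocyte markers, Csf1r the most abundant, summed to 279.6, 216 and 272 CPM in control, 306, 312 and 205 in LPS, and 624 and 722 in dual-treatment lungs. Of these 1 was higher and 2 lower with LPS, 5 were higher in the dual treatment than in LPS, and 6 than in control (ranges over the alternatives 1 to 2, 2 to 2, 5 to 6 and 5 to 6). No marker in these lists was at 0 in all libraries.

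Lymphocyte markers were scarce. The 5 T cell markers, Cd3d the most abundant, summed to between 5.54 and 13.2 CPM over the 8 lungs, with 1 higher and 1 lower in LPS than in control (0 to 1 and 0 to 2 over the alternatives). Their sums were 5.54 and 6.28 CPM in dual-treatment mice 2 and 5. In the dual treatment 2 of 5 were lower than in LPS (median log2FC -0.71), and 0 were called against control. The 3 regulatory T cell markers summed to 4.84, 5.59 and 4.83 CPM in control, 36.5, 15.6 and 20.9 in LPS, and 9.58 and 3.38 in dual-treatment lungs. That sum followed Ctla4, since Foxp3, the defining factor, had 8 to 19 reads in every lung. The 4 B cell markers, Cd79b the most abundant, summed to 35.9, 40.8 and 38.5 CPM in control, 24.4, 24.02 and 16.6 in LPS, and 70.4 and 24.7 in dual-treatment lungs. The 4 NK cell markers, Gzma the most abundant, summed to between 6.48 and 9.33 CPM in control, 12.1 and 32.6 in LPS, and 29.9 and 61.3 in dual-treatment lungs. That sum followed Gzma, from 5.52 mean CPM in control to 22.5 in LPS, while Ncr1, Klra8 and Klrb1c had lower means in LPS than in control (0.116 and 0.545, 0.289 and 0.572, 1.197 and 1.327 CPM). In LPS 1 of the 4 was called higher and 1 lower (median log2FC -0.56), in the dual treatment against LPS 3 were higher, and against control 1 was higher. These counts depend on the libraries and the scale: without LPS mice 6 and 7 the lower call in LPS was lost and edgeR called 0 against LPS, whereas 4 were higher there with library size alone. Over the alternatives the count against control was 1 or 2. The 4 endothelial markers, Cdh5 the most abundant, summed to between 2086 and 2430 CPM in control, 1474 and 1867 in LPS, and 2363 and 2445 in dual-treatment lungs, with 2 of 4 lower in LPS than in control (2 to 3 over the alternatives). That sum hides differences between markers. From control to LPS the mean CPM went from 348 to 36.0 for Tek and from 656.5 to 228 for Pecam1. It went from 662 to 745.7 for Cdh5 and from 617 to 608 for Cldn5. In the dual treatment 2 of 4 were higher than in LPS, and 1 than in control. The 3 adipose markers, Adipoq the most abundant, summed to 7.78, 53.8 and 10.1 CPM in control mice 1, 2 and 4, 3.56, 11.7 and 24.1 in LPS mice 1, 6 and 7, and 47.1 and 5.18 in dual-treatment mice 2 and 5, with 1 lower in LPS than in control, a call lost without control mouse 2 or any 1 of the LPS mice. Control mouse 2 and dual-treatment mouse 2 thus stood above the other 6 lungs. The 3 red blood cell markers, Hbb-bs the most abundant, summed to between 1502 and 3342 CPM in control, 1250 and 2723 in LPS, and 372 and 339 in dual-treatment lungs, where all 3 were lower than in either group. The part of these cells in the results was not tested.

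Where the dual treatment lay between control and LPS can be put as a share of the LPS change in mean log2 CPM, with control at 0% and LPS at 100%. The groups are different mice sampled at the same time, so this is no course over time. That share was 1.07% for Socs1, with 4.33% in mouse 2 and -2.18% in mouse 5. It was 29.8% for Socs3, with 31.9% in mouse 2 and 27.7% in mouse 5. For Socs2 it was 25.2%, made of 53.8% in mouse 2 and -3.45% in mouse 5. Cish lay below its control level, at -29.5% (-22.5% and -36.5%). Il10ra had 58.9%, and here mouse 5, with 74.4%, was above mouse 2, with 43.4%. Il10 had 94.1%, made of 124% in mouse 2 and 64.2% in mouse 5. The 2 mice therefore did not order the same way for every gene: mouse 2 was the higher for each of the 4 SOCS genes and Il10, and mouse 5 for Il10ra. The LPS change of Il10rb did not pass the test, so its share (166%, with 103% in mouse 2 and 229% in mouse 5) has little to refer to. These shares are descriptions with no test.

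Levels of different genes can be compared only per length of transcript. Per kb of merged exons, Socs3 was the most abundant of the 7 genes in control lungs (mean 26.5 CPM per kb), followed by Cish (9.61), Il10rb (8.61), Socs2 (6.48), Il10ra (3.19), Socs1 (1.56) and Il10 (0.273). In that order Cish and Il10rb overlapped between lungs and the other neighbors did not. In LPS lungs the order was Socs3 (232 CPM per kb), Socs1 (32.2), Cish (20.1), Il10ra (16.0), Socs2 (15.9), Il10rb (9.19) and Il10 (3.20). Socs1 thus stood at place 2 in LPS and place 6 in control, although its values overlapped with those of Cish, and Cish, Il10ra and Socs2 overlapped each with the next. In dual-treatment lungs the order was Socs3 (50.1 CPM per kb), Il10rb (9.60), Il10ra (8.45), Socs2 (8.38), Cish (7.75), Il10 (3.32) and Socs1 (1.61). There Socs3 stood apart, while Il10rb, Il10ra, Socs2 and Cish overlapped each with the next, as did Il10 and Socs1. The place of Socs2 depends on its length, because its 52 annotated transcripts merge to 15.3 kb whereas the Ensembl canonical transcript has 2.54 kb. With canonical lengths, a choice made after seeing the data, Socs2 stood at place 1 in control (38.9 CPM per kb against 35.4 for Socs3, with overlapping values) and at place 2 in LPS (95.8) and dual-treatment lungs (50.3). Socs1 then stood at place 4 in LPS, and 10 of 21 places were unchanged.

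The SOCS family has 4 further genes, which moved in both directions. Socs6 rose with LPS from 26.3 to 61.2 mean CPM (log2FC 1.22, SE 0.11, adjusted p = 1.04e-05, edgeR) and Socs7 from 53.3 to 111 CPM (log2FC 1.06, SE 0.14, adjusted p = 0.000109, edgeR). Socs5 fell from 60.0 to 9.47 CPM (log2FC -2.66, SE 0.14, adjusted p = 8.74e-07, edgeR), and Socs4 from 35.1 to 22.1 CPM (log2FC -0.67, SE 0.12, adjusted p = 0.00075, edgeR). In LPS 2 of 4 were thus higher and 2 lower, with a median log2FC of 0.20, and the counts were 2 and 2 again without LPS mice 6 and 7. In the dual treatment against LPS the log2FC was -1.36 for Socs6, -1.52 for Socs7, 2.60 for Socs5 and 0.36 for Socs4, all 4 called by edgeR. The Socs4 call (adjusted p = 0.0385, edgeR) was lost in DESeq2 (adjusted p = 0.104) and without any 1 of control mice 2 or 4, LPS mice 1 or 6, or dual-treatment mice 2 or 5 (adjusted p from 0.0589 to 0.223, edgeR). Its log2FC was 0.31 in DESeq2 and 0.36, 0.33, 0.28, 0.37, 0.27 and 0.39 without those mice in turn. The call was also lost with DESeq2 size factors (log2FC 0.30) and with only the 2 groups compared (log2FC 0.34). Against control edgeR called 0 of these 4 genes in the dual treatment (2 at an unadjusted p under 0.05), while DESeq2 called 1, Socs7, as lower. Its log2FC was -0.45 (adjusted p = 0.0807 by edgeR) and -0.47 by DESeq2 (adjusted p = 0.0387). With edgeR it was also called lower without LPS mice 6 and 7, without LPS mouse 1, with no filter and with only the 2 groups compared (log2FC -0.45, -0.45, -0.45 and -0.44, adjusted p = 0.0086, 0.0101, 0.0345 and 0.00929).

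SOCS box proteins act as parts of an ubiquitin ligase, and its 4 common subunits had small fold changes. Elob, Eloc and Rnf7 were called higher in LPS (3 of 4, median log2FC 0.36) and Cul5 was not, but with scaling by library size alone none of the 3 was called and Cul5 was called lower. The Eloc call was lost without control mouse 2 or 4 or LPS mouse 1 or 6 (log2FC 0.31, 0.34, 0.27 and 0.33), and the Rnf7 call without control mouse 1 or LPS mouse 1 (log2FC 0.31 and 0.26). In the dual treatment edgeR called 0 of 4 against LPS and 0 of 4 against control (1 at an unadjusted p under 0.05 against control, 0 against LPS), and DESeq2 called 0 in each. Median log2FC values were -0.08 and 0.16. These zeros depend on the libraries and the scaling. With LPS mice 6 and 7 left out, or mouse 7 alone, Eloc was called lower against LPS (log2FC -0.47 and -0.42) and Elob higher against control (0.43 in each). Without LPS mouse 7 Cul5 was called higher against LPS (0.32). With library size alone Cul5 was called higher against LPS (0.57) and Elob against control (0.47), and Elob was called there also with no filter (0.43) and with only the 2 groups compared (0.45). In LPS against control 3 of 4 were higher without LPS mice 6 and 7.

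The kinases and transcription factors that SOCS proteins restrain split by gene. Of the 4 JAKs, 2 were higher and 1 lower in LPS (median log2FC 0.22), 2 were higher and 2 lower in the dual treatment against LPS (-0.05), and 0 were called by edgeR or DESeq2 against control (1 at an unadjusted p under 0.05 in edgeR, median 0.11). Jak2 rose with LPS from 57.6 to 171 mean CPM (log2FC 1.57, SE 0.13) and was 64.4 CPM in the dual treatment (log2FC -1.41, SE 0.14 against LPS). Tyk2, which serves type I interferon and IL-10 receptors, fell from 61.3 to 35.1 CPM (log2FC -0.81, SE 0.11) and was 64.1 CPM in the dual treatment. STAT genes are given singly, with no count over their list. Stat2, a partner in type I interferon signaling, rose with LPS (log2FC 2.97, SE 0.18) and Stat6, the factor that IL-4 activates, fell (log2FC -1.09, SE 0.08). Stat3, the factor that IL-10 and IL-6 activate, rose from 243 to 998 CPM (log2FC 2.04, SE 0.13) and was 273 CPM in the dual treatment (log2FC -1.87, SE 0.15 against LPS). The STAT5 genes moved in opposite directions: Stat5a rose (log2FC 1.44, SE 0.14) and Stat5b fell (log2FC -1.29, SE 0.08). In the dual treatment their log2FC values against LPS were -1.10 and 1.02. With LPS mice 6 and 7 left out the JAK counts were 2 and 1 in LPS, and 2 and 2 in the dual treatment against LPS. Jak3 was near the threshold (log2FC -0.31, adjusted p = 0.0552, edgeR; as low as 0.00101 over the alternatives). It was called lower in LPS, which makes 2 higher and 2 lower, with library size alone, no filter, at least 10 reads in every library and only the 2 groups compared (log2FC -0.60, -0.34, -0.33 and -0.32), and without LPS mouse 1 or dual-treatment mouse 2 or 5 (log2FC -0.44, -0.32 and -0.32). With only the 2 groups compared it was also called higher in the dual treatment than in control (log2FC 0.35).

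Other inhibitors of the pathway were read beside the SOCS genes. Of these 10 genes, 7 were higher and 2 lower in LPS (median log2FC 0.39), 3 higher and 6 lower in the dual treatment against LPS (-0.47), and 3 higher and 1 lower against control (-0.02). Over the alternatives the last pair ran from 2 to 4 and from 0 to 1. With library size alone as the scale the first 2 pairs were 3 and 2, and 3 and 3, and without LPS mice 6 and 7 they were 7 and 2, and 2 and 6. Ptpn2, a phosphatase that acts on JAKs, rose from 20.2 to 104 mean CPM (log2FC 2.36, SE 0.15) and was 27.6 CPM in the dual treatment (log2FC -1.91, SE 0.18 against LPS). Usp18, the interferon-induced brake on IFNAR2, rose from 22.9 to 169.6 CPM (log2FC 2.89, SE 0.27) and was 47.0 CPM in the dual treatment (log2FC -1.85, SE 0.30). Pias3, an inhibitor of STAT3, went the other way, from 42.1 to 13.9 CPM (log2FC -1.59, SE 0.15) and 39.5 CPM. Ptpn1 and Ptpn6 were above control in the dual treatment, with log2FC values of 1.10 (adjusted p = 0.000964, edgeR) and 1.69 (adjusted p = 0.000805, edgeR). Ptpn6 encodes SHP-1, the phosphatase of blood cells, and its mean of 127.5 CPM in the dual treatment was above the 65.3 CPM in LPS.

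The ligands whose receptors SOCS1 and SOCS3 restrain were mostly called in the same direction as Socs1. Of 7 ligand genes 6 were tested; 5 of them were higher in LPS, 5 were lower in the dual treatment than in LPS (median log2FC -3.94), and 2 were higher than in control (0.44). Csf3 and Ifng had at most 3 reads in every control lung, which is the floor used here. Both genes passed the filter only through the LPS lungs, where they were high. Their direction in LPS against control, and in the dual treatment against LPS, was therefore set by the filter. With these 2 genes set against 3 reads per control library the median LPS log2FC of the list was 4.61, and 4.86 as fitted. Csf3, which encodes G-CSF, had 1, 0 and 1 reads in control, 2930, 2428 and 1858 in LPS, and 159 and 10 in dual-treatment lungs. Ifng, the ligand of the receptor that SOCS1 is best known to restrain, had 2, 1 and 3 reads in control, 93, 41 and 8 in LPS, and 0 and 5 in dual-treatment lungs. Osm rose from 1.13 to 34.8 mean CPM (log2FC 4.93, SE 0.34) and was 3.51 CPM in the dual treatment (log2FC -3.31, SE 0.35 against LPS). Ifnb1 was too scarce to test, with 1, 2 and 1 reads in control, 6, 9 and 11 in LPS, and 1 and 0 in dual-treatment lungs. Leaving out LPS mice 6 and 7, the list again had 5 higher in LPS and 5 lower in the dual treatment against LPS. The filter of at least 10 reads in every library left 4 genes, of which 3 were called in each of these comparisons. The 2 calls against control, Osm and Csf3, were both lost without control mouse 2 and without dual-treatment mouse 2, and that of Csf3 also without control mouse 1 or 4. The log2FC of Osm was 1.62, with 1.40 and 1.52 without those mice in turn. Csf3 was at the floor in control, so only a bound is given, at least 26.98-fold, and at least 3.095-fold without dual-treatment mouse 2.

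Their receptors changed less evenly. Of 10 receptor genes 5 were higher and 2 lower in LPS (median log2FC 0.37), 3 higher and 5 lower in the dual treatment against LPS (-0.40), and 1 higher and 4 lower against control (-0.01). Without LPS mice 6 and 7 the first 2 pairs were 4 and 2, and 2 and 5. Over all alternatives they ran from 4 to 5 and 1 to 3, and from 1 to 4 and 4 to 6, with the fewest higher against LPS without dual-treatment mouse 5. The pair against control ran from 1 to 2 and 2 to 4, with 2 lower on leaving out any 1 control mouse or dual-treatment mouse 2. Osmr, the oncostatin M receptor, rose from 93.9 to 467 mean CPM (log2FC 2.31, SE 0.18) and was 88.3 CPM in the dual treatment (log2FC -2.40, SE 0.21 against LPS). Lifr fell in LPS from 151 to 49.4 CPM (log2FC -1.61, SE 0.16). Il6st, which encodes gp130, had an LPS log2FC of -0.05 and did not pass the test. With the dual treatment Il6st was lower than in LPS (log2FC -0.62, SE 0.12) and lower than in control (log2FC -0.67, SE 0.12). Csf3r, the G-CSF receptor of neutrophils, was higher in the dual treatment (86.7 mean CPM) than in control (21.4 CPM, log2FC 2.02, SE 0.29).

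Receptors that use STAT5, on which CIS and SOCS2 act, were a mixed list. Of 9 genes 3 were higher and 2 lower in LPS (median log2FC 0.33), 5 higher and 2 lower in the dual treatment against LPS (0.57), and 3 higher against control (-0.21). Without LPS mice 6 and 7 the first 2 pairs were 3 and 2, and 3 and 1. Without dual-treatment mouse 2 the calls of Csf2rb, Il2rg and Il7r against LPS were lost (log2FC 0.48, 0.48 and 0.40, beside 0.58, 0.57 and 0.95 with it), which leaves 2 higher. The Il2rg call was also lost with DESeq2 size factors and with only the 2 groups compared (log2FC 0.52 and 0.555). It was lost too without control mouse 4, LPS mouse 6, LPS mouse 7 or dual-treatment mouse 5 (log2FC 0.54, 0.55, 0.38 and 0.61). The log2FC of Il2rg was 0.21 without LPS mice 6 and 7. The Il7r call was also lost with only the 2 groups compared and without control mouse 4, LPS mouse 1 or LPS mouse 6 (log2FC 0.93, 0.92, 0.80 and 0.91). The number lower against LPS was 1 in 6 alternatives, and the number higher against control was 3 or 4 in every alternative. Ghr, the growth hormone receptor, fell with LPS from 101 to 46.6 mean CPM (log2FC -1.11, SE 0.13) and was 83.6 CPM in the dual treatment (log2FC 0.84, SE 0.15 against LPS), opposite to Socs2 in both comparisons. Il2rb, a chain of the IL-2 receptor, rose from 5.82 to 38.7 CPM (log2FC 2.73, SE 0.34) and was lower in the dual treatment (log2FC -1.65, SE 0.37). The 3 genes above control in the dual treatment were Csf2ra, Csf2rb and Il2rg (log2FC 1.27, 1.71 and 1.69), which encode receptor chains of myeloid and lymphoid cells.

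The rest of the IL-10 family was nearly silent apart from Il22, the barrier cytokine of this family. Il22 had 0 reads in all 3 control lungs, 749, 85 and 141 in LPS mice 1, 6 and 7, and 0 and 1 in dual-treatment mice 2 and 5. Its LPS mean was at least 134-fold above 3 reads per control library, a bound that rests on LPS mouse 1 (44.4 CPM, beside 4.91 and 7.87 in mice 6 and 7) and is at least 45.05-fold without it. Il22 was the 1 gene tested of 6 in its list and was at the floor in both dual-treatment and control lungs. It passed the filter through the LPS lungs alone, where it was high, so its calls are not read here. Of the others, Il19 had 10, 8 and 5 reads in LPS and at most 2 elsewhere, Il20 had 0 in all lungs, Il24 had 1 in a single lung, and Ifnl2 and Ifnl3 had 10 and 8 reads in LPS mouse 7 and 0 in the other 7 lungs. In the same dual-treatment lungs Il10 had 154 and 39 reads. Of the 5 other receptor genes of the family, 1 was higher and 2 lower in LPS (median log2FC 0.22), 2 were lower in the dual treatment than in LPS (0.30), and 1 was higher than in control (-0.21). Il20rb rose with LPS from 3.35 to 18.7 mean CPM (log2FC 2.48, SE 0.30), and Ifnlr1, the partner of IL-10RB for type III interferons, fell from 32.6 to 22.9 CPM (log2FC -0.51, SE 0.13). With LPS mice 6 and 7 left out the 4 receptor genes still tested had 1 higher and 1 lower in LPS. The 2 calls in the dual treatment against LPS, Il20ra (log2FC -2.56) and Il20rb (log2FC -0.91), depend on the libraries. Il20ra passed the filter only through LPS mice 6 and 7, where it was high, so the direction of its call was set by the filter. Without LPS mice 6 and 7 Il20ra was not tested and Il20rb lost its call at a log2FC of -0.97. The Il20rb call was also lost without LPS mouse 1 or 6 or dual-treatment mouse 5 (log2FC -0.90, -0.92 and -0.43), and the Il20ra call without control mouse 2 or dual-treatment mouse 2 or 5 (log2FC -2.55, -1.96 and -3.76). Both were lost with library size alone (log2FC -2.27 and -0.58) and with only the 2 groups compared (log2FC -2.58 and -0.93). With library size alone the count turned around, to 3 higher and 0 lower, and the 3 were Il22ra1, Il22ra2 and Ifnlr1 (log2FC 0.98, 0.99 and 0.63, beside 0.67, 0.67 and 0.30). The call against control, Il20rb (log2FC 1.56), was lost without dual-treatment mouse 2 (log2FC 0.75), and Il22ra1 was called there as well under 3 alternatives.

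Genes that IL-10 is known to induce in macrophages rose with LPS, and most were lower in the dual treatment than in LPS. All 8 of the list were higher in LPS (median log2FC 2.37), 7 of 8 were lower in the dual treatment than in LPS (-2.07), and 3 were higher than in control (0.40). Nfil3, a repressor, rose from 11.7 to 199 mean CPM (log2FC 4.09, SE 0.21) and was 13.1 CPM in the dual treatment (log2FC -3.93, SE 0.25 against LPS). Sbno2 rose from 132 to 1092 CPM (log2FC 3.05, SE 0.16), was lower in the dual treatment (log2FC -2.12, SE 0.18), and was above control (log2FC 0.93, SE 0.16). Dusp1 and Zfp36, which many other signals also induce, rose by log2FC values of 2.56 and 3.01 and were lower in the dual treatment (log2FC -2.24 and -2.61). Il4ra rose from 147.5 to 666 CPM and was 223 CPM in the dual treatment. In the same lungs Il10 had a log2FC of 0.05 between the dual treatment and LPS, with the wide interval given above. Tnip3 was the exception, with 2.43, 3.72 and 4.92 mean CPM in the 3 groups, and its LPS call was lost without control mouse 2 or 4 or LPS mouse 1 or 7 (log2FC 0.56, 0.60, 0.60 and 0.60). The 3 genes above control in the dual treatment were Sbno2, Il4ra and Tnip3. Il4ra (log2FC 0.60) lost that call without control mouse 1 or 2 or dual-treatment mouse 2 (log2FC 0.55, 0.56 and 0.40), and Tnip3 (log2FC 1.02) without control mouse 2 or 4 or dual-treatment mouse 5 (log2FC 0.96, 0.98 and 0.77), so 1 gene, Sbno2, is left without control mouse 2. With LPS mice 6 and 7 left out, 7 of 8 were higher in LPS and 7 of 8 lower in the dual treatment against LPS.

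Across the 7 genes, values in the 8 lungs moved together to different degrees. Pearson r of log2 CPM over the 8 lungs was 0.97 between Socs1 and Socs3, 0.96 between Socs1 and Cish, and 0.93 between Socs3 and Il10ra, but 0.615 between Socs1 and Il10. These are descriptions that mostly carry the 3 groups. Among 15613 genes with a mean of at least 1 CPM, the one most like Socs1 was Nfil3 (r = 0.9996), with 267, 153 and 176 CPM in LPS mice 1, 6 and 7 and 10.8 to 14.3 CPM in the other 5 lungs; Sema4c and Itprip came next. Socs3 was most like Ints15, Sbno2 and Ubb (r = 0.998, 0.997 and 0.996). Cish was most like Atf3, a stress-induced factor (r = 0.995), which also lay below the controls in the dual treatment, with 23.1, 29.2 and 28.5 CPM in control mice 1, 2 and 4 and 17.2 and 14.6 CPM in dual-treatment mice 2 and 5; Mex3c and Ktn1 followed. Socs2 was most like Ptx3, a long pentraxin (r = 0.999), with 13.0 CPM in dual-treatment mouse 2 and 0.746 CPM in mouse 5; Aspg and Gnl3 followed. Il10 was most like Rpn2 and Ch25h (r = 0.992 and 0.984), and Ch25h had 71.6 CPM in dual-treatment mouse 2 and 26.0 CPM in mouse 5. Il10ra was most like Il1b, Adamts14 and Ifngr1 (r = 0.991 for each), and Il1b had 34.7 CPM in dual-treatment mouse 2 and 60.0 CPM in mouse 5. Il10rb, which hardly varied, was most like the scarce Col9a3 (r = 0.983), Tnnt1 and Trps1.

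Promoters are shown for those SOCS genes whose promoter sequence was available. STAT factors are known to induce this family, but their part in these results was not tested. Of the 7 genes 3 were in the RefSeq promoter table (GRCm38.p6, 250 bases before to 50 after the gene start): Socs1 (chr16:10785487-10785786, minus strand), Socs3 (chr11:117969317-117969616, minus strand) and Cish (chr9:107296409-107296708, plus strand); Socs2, Il10, Il10ra and Il10rb were not. The motif TTCNNNGAA, the palindrome that STAT dimers bind, reads alike on both strands and was searched in all 32851 promoters of the table, of which 8.30% hold it and 0.457% hold it at least 2 times. Capitals mark it in Socs3, with 1 match (TTCTTAGAA), and in Cish, with 2 (TTCCTGGAA and TTCTTGGAA) that are 2 bases apart. The Socs1 window holds 0 matches. In Socs1 capitals mark GAAANNGAAA, a repeat of the kind that interferon regulatory factors bind, chosen after the sequence was read and searched on both strands. It matches 2 times there, in overlapping stretches (GAAAGAGAAA and GAAACCGAAA), 0 times in Socs3 and Cish, and in 3.44% of all promoters. A match describes the letters of the window and no binding.
Socs1: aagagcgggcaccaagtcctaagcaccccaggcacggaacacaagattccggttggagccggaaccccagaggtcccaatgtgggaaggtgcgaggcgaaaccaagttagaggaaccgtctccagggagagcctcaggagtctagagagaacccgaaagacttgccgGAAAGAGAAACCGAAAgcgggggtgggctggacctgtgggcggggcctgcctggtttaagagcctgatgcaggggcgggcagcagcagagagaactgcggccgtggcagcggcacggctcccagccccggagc
Socs3: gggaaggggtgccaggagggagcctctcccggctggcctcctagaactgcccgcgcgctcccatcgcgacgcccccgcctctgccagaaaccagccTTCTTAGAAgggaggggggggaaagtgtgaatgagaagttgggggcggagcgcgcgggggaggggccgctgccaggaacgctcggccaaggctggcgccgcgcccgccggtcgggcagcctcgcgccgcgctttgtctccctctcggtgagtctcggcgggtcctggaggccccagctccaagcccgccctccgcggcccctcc
Cish: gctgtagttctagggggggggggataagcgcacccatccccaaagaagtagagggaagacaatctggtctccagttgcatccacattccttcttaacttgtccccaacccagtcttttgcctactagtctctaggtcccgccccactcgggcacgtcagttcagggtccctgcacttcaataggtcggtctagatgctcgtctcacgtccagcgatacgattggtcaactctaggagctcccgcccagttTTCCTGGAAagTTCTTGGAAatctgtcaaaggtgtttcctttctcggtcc

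The 7 genes lie on 5 chromosomes of GRCm39 by GENCODE M39. Socs1 (ENSMUSG00000038037) is at chr16:10600104-10603875, Socs2 (ENSMUSG00000020027) at chr10:95219523-95253929 and Socs3 (ENSMUSG00000053113) at chr11:117856905-117860898. Cish (ENSMUSG00000032578) is at chr9:107173225-107179983 and Il10ra (ENSMUSG00000032089) at chr9:45165132-45180563. Il10 (ENSMUSG00000016529) is at chr1:130947581-130952711, in a cluster with Il19, Il20 and Il24 (starts at 130860393, 130834722 and 130809811). Of these 4 neighbors on chromosome 1, Il10 was the one with enough reads to be tested. Il10rb (ENSMUSG00000022969) is at chr16:91203012-91224600, between Ifnar2 (start 91169618) and Ifnar1 (start 91281942), with Ifngr2 (start 91343906) beyond. Of these 4 receptor genes on chromosome 16, Ifnar2 rose with LPS (log2FC 0.80, SE 0.12), Ifngr2 had a log2FC of -0.40 (SE 0.12), and Ifnar1 (0.05) and Il10rb (0.09) were not called. The Ifngr2 call was lost without control mouse 1, LPS mouse 1 or LPS mouse 7 (log2FC -0.37, -0.33 and -0.31). The strand setting of the counting is not stated, so antisense genes could share reads. Of those present in the files, the partners of Socs2 had 3 to 29 reads in any lung, that of Socs1 at most 1, and that of Cish 0, while Gm21970, which shares exons with Il10rb on the same strand, had 0 in all 8 lungs.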

How the data were processed

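Lung RNA of 8 mice was sequenced, 1 library per mouse. Per the labels and methods, the authors filtered reads (FastQC 0.11.9, Trim Galore), aligned them to GRCm39 (HISAT2 2.2.1) and deposited raw counts per Ensembl gene (featureCounts 2.0.1); annotation release, strand and multimapping settings are not stated. Library totals ran from 19061949 to 20908608 reads. Gene IDs were matched to GENCODE M39 (54749 of 55416; the other 667 held 0.0533% of counts). Counts were TMM-scaled, filtered with filterByExpr and fitted once over all 8 libraries with 1 group factor in edgeR 4.0.16 (R 4.3.3, glmQLFit, 5 residual degrees of freedom); DESeq2 1.42.0 was an alternative. At this depth Il10 in control rests on 4 to 14 reads. Log2 CPM used a prior count of 2. Ratios of raw counts had 0.5 added and were compared by exact permutation. Named genes were the 7 genes, the listed pathway and marker genes, and the 3 genes most correlated with each. Members and lists were chosen with earlier results of these data known. Alternatives covered scaling, filter, threshold, test, the groups fitted and libraries left out.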

Additional observations from a re-analysis of the deposited data

How the results depend on the processing

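Over the alternatives, 299 of 312 log2FC values of the 7 genes were in the direction of the main result and on the same side of the test, 2 passed and 1 missed the threshold newly, and 10 changed sign, none of them called in either fit. Signs changed for Il10rb in LPS against control (-0.19, library size alone), for Il10rb in the dual treatment against LPS (-0.0207 to 0.0971 on leaving out 1 library, -0.0070 without LPS mice 6 and 7), and for Il10 there (-5e-04 with DESeq2 size factors, -0.44 without LPS mice 6 and 7). Leaving out 1 library gave log2FC ranges with both signs for Il10 in the dual treatment against LPS (-1.31 to 0.72), and against control for Socs1 (-0.13 to 0.16) and Socs2 (-0.0793 to 0.668). The cause was not tested.

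Requiring a fold over 2 gave 3 of the 7 genes in the dual treatment against LPS, with adjusted or unadjusted p. Over all genes it gave 7279 adjusted and 7450 unadjusted in LPS against control, 6264 and 6554 in the dual treatment against LPS, and 1327 and 1944 in the dual treatment against control, against 12346, 10960 and 2997. Leaving out 1 library gave 11004 to 12709, 8673 to 10626 and 1220 to 3601 genes, and 6, 5 and 2 to 4 of the 7. The Socs3 to Cish difference between dual treatment and LPS was -0.73 without LPS mice 6 and 7 (added after seeing the data), -0.85 in the main result. Of the listed pathway genes called, STAT genes aside, 6 of 48, 10 of 47 and 10 of 18 lost the call without some 1 library. Library size alone shifted the median log2FC of all genes by -0.28 in LPS against control and 0.32 in the dual treatment against LPS; 35.6% and 71.0% of calls were then higher, 49.0% and 53.6% with TMM. Il10 has no value with at least 10 reads required in every library. No paired analysis was made, because the groups are different mice and the mouse numbers are labels within a group.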
